A study of Mus musculus with 64 samples.

Results

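The results below concern 5 transcriptional repressors of the circadian clock in the mouse ventral tegmental area (VTA), a midbrain nucleus rich in dopamine neurons. They are the REV-ERB nuclear receptors Nr1d1 and Nr1d2, the DEC helix-loop-helix repressors Bhlhe40 and Bhlhe41, and Ciart, which encodes CHRONO. They were taken by name from the 24421 gene symbols of the deposited count table, and all 5 were among the 15634 genes with enough counts to be tested. Each of 64 adult male mice of the strain given as 129S1/Svlm gave 1 library from 1 mm punches, collected at zeitgeber time 6 after 14 days of treatment and about 24 h after the final dose. The labels give the genotype as Wildtype or Clock delta 19 mutant, and name 4 treatments. These are VPA (valproate, used as a mood stabiliser and also a histone deacetylase inhibitor), ACY957 (which inhibits class I histone deacetylases) and a separate vehicle for each. The 4 drug-treated groups hold 8 libraries each. Among VPA vehicle mice 3 libraries are labelled wildtype and 13 mutant, and among ACY957 vehicle mice 5 and 11. The design text gives 8 mice for every group, so the vehicle labels depart from it. Mice 1 to 24 carry the wildtype label and mice 25 to 64 the mutant label. Genotype and anything else tied to mouse number thus cannot be told apart. Treatment also runs in blocks: wildtype-labelled mice 1 to 8 had VPA, 9 to 16 a vehicle and 17 to 24 ACY957. Mutant-labelled mice 40 to 47 had ACY957.

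CLOCK and BMAL1 form a dimer that binds E-boxes and activates transcription, and the 5 genes are both targets of this dimer and repressors within the loop. The REV-ERB receptors bind response elements shared with the ROR activators, recruit the NCOR-HDAC3 corepressor and repress Arntl, the gene of BMAL1. The DEC proteins compete for E-boxes, and CHRONO binds BMAL1 and dampens the activity of the dimer. The transcript of the Clock delta 19 allele lacks an exon. Its CLOCK protein still pairs with BMAL1 and binds DNA but activates poorly. Rhythms of E-box targets are therefore dampened in mice that carry the allele. Zeitgeber time 6 is the middle of the light phase. A single time point gives a level and not a rhythm.

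The promoters of 4 of the 5 genes were in the RefSeq table (GRCm38.p6) and are shown because the E-box is the element through which CLOCK acts. Bhlhe40 is not shown. The 250 bases before the RefSeq start were searched. Those downstream of the most upstream annotated start held no match and are not printed. This leaves 250 printed bases for Nr1d1 (chr11:98775378-98775627), 229 for Nr1d2 (chr14:18239128-18239356), 112 for Bhlhe41 (chr6:145865559-145865670) and 221 for Ciart (chr3:95882258-95882478). All lie on the minus strand of the chromosome and are written 5′ to 3′ along the gene, with motif matches in capitals.
Nr1d1: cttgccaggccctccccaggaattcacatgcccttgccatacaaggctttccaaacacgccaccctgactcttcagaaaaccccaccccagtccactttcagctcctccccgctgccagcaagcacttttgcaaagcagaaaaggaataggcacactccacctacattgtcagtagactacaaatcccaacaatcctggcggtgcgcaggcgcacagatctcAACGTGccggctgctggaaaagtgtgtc
Nr1d2: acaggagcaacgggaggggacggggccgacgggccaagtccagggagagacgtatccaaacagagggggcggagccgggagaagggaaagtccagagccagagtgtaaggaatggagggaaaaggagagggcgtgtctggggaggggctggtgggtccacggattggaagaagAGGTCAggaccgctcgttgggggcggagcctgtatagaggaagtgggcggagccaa
Bhlhe41: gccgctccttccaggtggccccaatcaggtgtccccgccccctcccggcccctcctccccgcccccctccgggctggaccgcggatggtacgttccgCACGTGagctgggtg
Ciart: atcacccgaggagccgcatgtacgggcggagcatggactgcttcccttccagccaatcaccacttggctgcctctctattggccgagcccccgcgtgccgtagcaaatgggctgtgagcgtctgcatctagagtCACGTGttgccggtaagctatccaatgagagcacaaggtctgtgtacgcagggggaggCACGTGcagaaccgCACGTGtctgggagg
Both strands were searched for the E-box CACGTG, the related CACGTT, the REV-ERB and ROR half-site AGGTCA, and the D-box TTANGTAA, none of which contains another. Ciart holds 3 copies of CACGTG, beginning 116, 58 and 44 bases before the RefSeq start. Bhlhe41 holds 1 copy of CACGTG, 153 bases before its start. Nr1d1 holds 1 CACGTT on the opposite strand (printed as AACGTG), 28 bases before its start, and Nr1d2 holds 1 AGGTCA, 77 bases before its start. Of 32851 mouse promoters searched over the 250 bases before the start, 6.02% hold CACGTG, 3.85% hold CACGTT, 14.0% hold AGGTCA and 2.06% hold TTANGTAA. At least 3 copies of CACGTG occur in 20 of them, or 0.0609%. A match is a description of the letters and not a measured binding site.

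The libraries hold 20.1 M to 37.5 M counted reads, with a median of 25.8 M. Levels are given as CPM, the count scaled to the library total. The summed level of 9 dopamine neuron markers ranged from 291 to 12400 CPM, with none of the 9 at 0 in any library, and 4 libraries had Th, the rate-limiting enzyme of dopamine synthesis, under 8 log2 CPM. These are VPA wildtype-labelled replicate 3, VPA mutant-labelled replicates 2 and 8, and VPA vehicle mutant-labelled replicate 3. Clock itself had group means of 66.0 to 75.1 CPM. Averaged over the 4 treatments, its difference between labels was 0.08 on the log2 scale (SE 0.05, adjusted p = 0.516, edgeR). A gene-level count does not see the missing exon and so does not check the label.

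The 2 REV-ERB genes were expressed at different levels. Per kilobase of annotated exon, the median over wildtype-labelled libraries was 36.3 CPM for Nr1d2, 12.2 for Nr1d1, 11.2 for Bhlhe40, 8.85 for Bhlhe41 and 3.47 for Ciart. In mutant-labelled libraries the medians per kilobase were 21.5, 9.26, 8.66, 6.11 and 0.836 in the same order. Nr1d2 was thus the most abundant of the 5 under either label, and Ciart the least. Ciart rests on 25 to 332 reads per library, against 1319 to 7542 for Nr1d2. Its lowest library, VPA vehicle mutant-labelled replicate 12, had 0.954 CPM with an exact Poisson 95% interval of 0.617 to 1.41. Its highest, replicate 6 of the same group, had 12.5 CPM with an interval of 11.2 to 14.0. These intervals cover counting error alone, and reads without molecular identifiers are not independent molecules.

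Nr1d1 encodes REV-ERBα and lies on chromosome 11 at 98767932 to 98775333 (mm10, minus strand), with 263 exon bases overlapping Thra on the other strand. In ACY957 vehicle mice labelled wildtype the 5 libraries had 51.6, 50.03, 43.8, 41.8 and 41.7 CPM, and in VPA vehicle mice labelled wildtype the 3 libraries had 27.4, 32.3 and 43.95 CPM. The lowest, median and highest values were 22.9, 30.5 and 43.3 CPM in VPA mice labelled wildtype, and 32.9, 39.9 and 50.7 CPM in ACY957 mice labelled wildtype. Under the mutant label they were 18.5, 26.98 and 48.5 CPM in VPA vehicle, 22.3, 25.7 and 35.1 CPM in VPA, 26.8, 30.5 and 53.4 CPM in ACY957 vehicle, and 20.9, 25.4 and 38.7 CPM in ACY957 mice. The groups overlapped in every treatment. In the order of group means the mutant-labelled ACY957 vehicle mice, at 34.7 CPM (SD 8.81, n = 11), stood above 2 of the 4 wildtype-labelled groups. The highest mean was 45.8 CPM (SD 4.72, n = 5) in wildtype-labelled ACY957 vehicle mice, and the lowest was 27.2 CPM (SD 5.84, n = 8) in mutant-labelled ACY957 mice.

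Nr1d2 encodes REV-ERBβ and lies on chromosome 14 at 18204054 to 18239127 (minus strand). The wildtype-labelled vehicle libraries had 205, 245 and 187 CPM for the VPA vehicle and 203, 190, 186, 188 and 215 CPM for the ACY957 vehicle. The lowest, median and highest values were 170, 195 and 219 CPM in VPA mice labelled wildtype and 114, 196 and 203 CPM in ACY957 mice labelled wildtype. Under the mutant label they were 90.1, 125 and 213 CPM in VPA vehicle, 105, 116 and 157 CPM in VPA, 41.6, 113 and 204 CPM in ACY957 vehicle, and 99.2, 109 and 172 CPM in ACY957 mice. In VPA mice all 8 mutant-labelled libraries lay below all 8 wildtype-labelled ones. How many of all genes tested separate as far was not counted, here or for the like counts of the other repressors. In the other 3 treatments the groups overlapped, with 8 of 13 (VPA vehicle), 5 of 8 (ACY957) and 8 of 11 (ACY957 vehicle) mutant-labelled libraries under the lowest wildtype-labelled library. The 4 wildtype-labelled group means, 185 to 212 CPM, all exceeded the 4 mutant-labelled means, 120 to 151 CPM. The lowest library of all, ACY957 vehicle mutant-labelled replicate 11 with 1319 reads, was at 41.6 CPM against at least 88.7 CPM in the other 63. Nr1d2 was 1.55 log2 units there under the median of the other libraries of its group. By this deviation Nr1d2 was at rank 101 from the bottom among 5981 genes above 5 log2 CPM. Whether this library stands apart from the others was not tested.

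**Figure D1:**
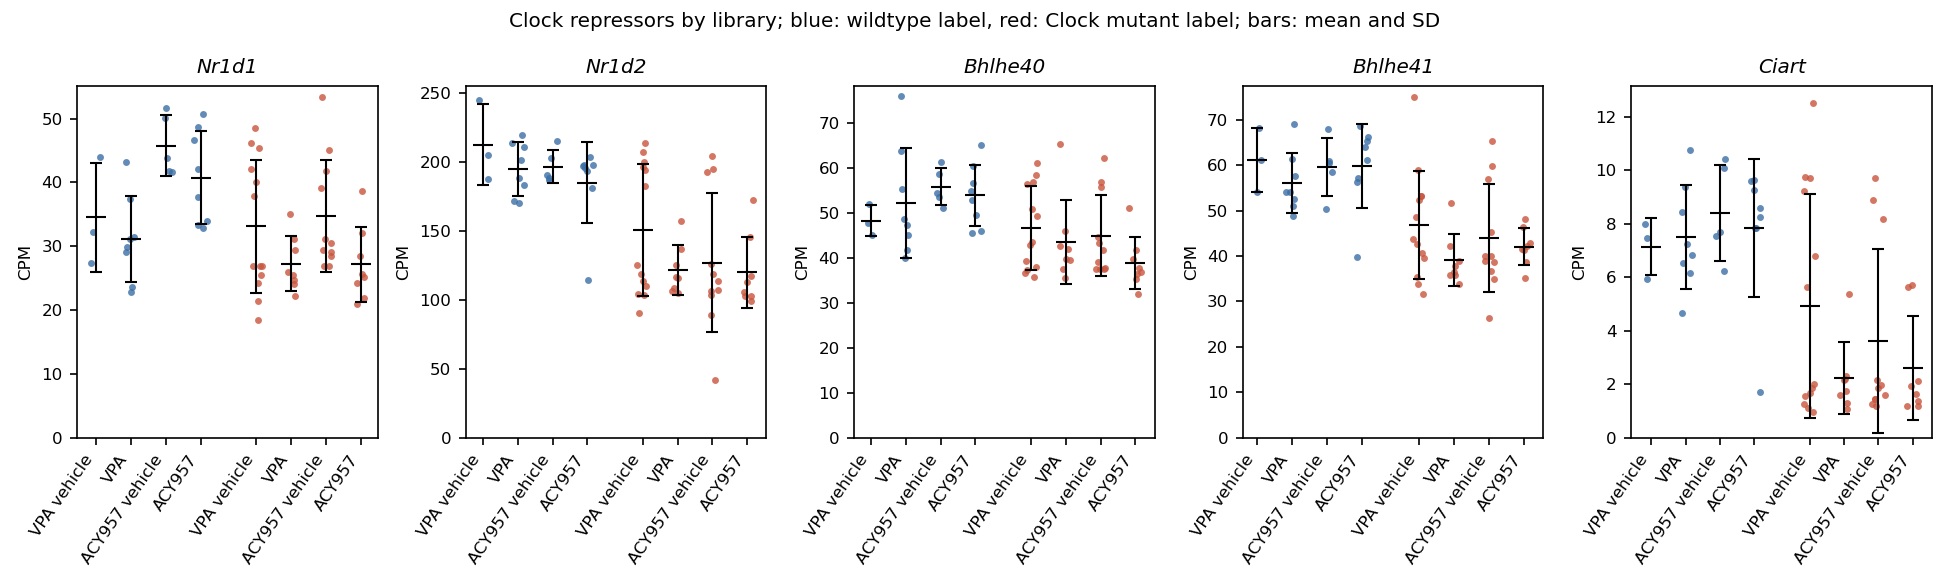
Level of each gene in CPM (vertical axis, each panel with its own scale from 0) in every library of the 8 genotype-by-treatment groups, with blue points for the wildtype label, red for the Clock mutant label, and bars for the mean and SD. The mutant-labelled vehicle groups of Ciart reach from 0.954 to 12.5 CPM, and for Nr1d2, Bhlhe40, Bhlhe41 and Ciart every wildtype-labelled mean lies above every mutant-labelled mean.

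Bhlhe40 encodes DEC1, a repressor that also responds to neuronal activity and hypoxia, and lies on chromosome 6 at 108660629 to 108666925 (plus strand). It shares 118 exon bases with 0610040F04Rik on the other strand. The wildtype-labelled vehicle libraries had 47.8, 45.2 and 51.96 CPM for the VPA vehicle and 61.5, 58.8, 51.2, 53.7 and 54.4 CPM for the ACY957 vehicle. In drug-treated mice labelled wildtype the lowest, median and highest values were 40.0, 48.04 and 76.1 CPM (VPA) and 45.5, 53.97 and 65.1 CPM (ACY957). Under the mutant label they were 35.7, 43.6 and 61.1 CPM in VPA vehicle, 35.6, 40.97 and 65.4 CPM in VPA, 37.5, 41.9 and 62.3 CPM in ACY957 vehicle, and 32.1, 37.4 and 51.1 CPM in ACY957 mice. The groups overlapped in every treatment, least in ACY957 mice, where 7 of 8 mutant-labelled libraries lay under the lowest wildtype-labelled one. The highest VPA library under either label, wildtype-labelled replicate 3 at 76.1 CPM and mutant-labelled replicate 2 at 65.4 CPM, was in each case a library low in Th.

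Bhlhe41 encodes DEC2 and lies on chromosome 6 at 145858243 to 145865558 (minus strand), with 1280 exon bases shared with Gm43909 on the other strand. The setting for strand in the counting is not given in the sources used here, so reads of Gm43909 and of the partners of Nr1d1 and Bhlhe40 may be counted or dropped in these overlaps. The wildtype-labelled vehicle libraries had 61.1, 68.2 and 54.2 CPM for the VPA vehicle and 68.1, 58.5, 61.1, 60.5 and 50.4 CPM for the ACY957 vehicle. In drug-treated mice labelled wildtype the lowest, median and highest values were 48.8, 54.1 and 69.2 CPM (VPA) and 39.7, 62.6 and 68.7 CPM (ACY957). Under the mutant label they were 31.5, 43.7 and 75.0 CPM in VPA vehicle, 33.96, 37.1 and 51.8 CPM in VPA, 26.3, 39.9 and 65.3 CPM in ACY957 vehicle, and 35.2, 41.8 and 48.2 CPM in ACY957 mice. In VPA mice 7 of 8 mutant-labelled libraries lay under the lowest wildtype-labelled one, and in VPA vehicle mice 11 of 13. Group means were 56.1 to 61.2 CPM under the wildtype label and 39.1 to 46.8 CPM under the mutant label.

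Ciart lies on chromosome 3 at 95878503 to 95882251 (minus strand). The wildtype-labelled vehicle libraries had 5.95, 7.49 and 8.01 CPM for the VPA vehicle and 7.53, 10.4, 7.70, 6.23 and 10.1 CPM for the ACY957 vehicle. In drug-treated mice labelled wildtype the lowest, median and highest values were 4.67, 7.04 and 10.8 CPM (VPA) and 1.70, 8.43 and 9.62 CPM (ACY957). Under the mutant label they were 0.954, 2.01 and 12.5 CPM in VPA vehicle, 1.06, 1.95 and 5.37 CPM in VPA, 1.18, 1.86 and 9.72 CPM in ACY957 vehicle, and 1.17, 1.78 and 5.73 CPM in ACY957 mice. The medians under the mutant label lay between 1.78 and 2.01 CPM in the 4 treatments, while the highest library reached 12.5 CPM in VPA vehicle, above the wildtype-labelled maximum of 8.01 CPM, and 9.72 CPM in ACY957 vehicle, below the wildtype-labelled maximum of 10.4 CPM. The mutant-labelled means were 4.93 CPM (SD 4.19, n = 13) in VPA vehicle, 3.61 CPM (SD 3.45, n = 11) in ACY957 vehicle, 2.60 CPM (SD 1.94, n = 8) in ACY957 and 2.22 CPM (SD 1.35, n = 8) in VPA mice. The wildtype-labelled means ran from 7.15 CPM (SD 1.07, n = 3) in VPA vehicle to 8.39 CPM (SD 1.80, n = 5) in ACY957 vehicle mice. For each of the 5 genes, no 2 neighbours in the order of the 8 group means differed by more than the larger SD of the pair.

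Ciart fell into separate ranges over the 64 libraries. It was at or below 2.30 CPM in 29 libraries and at or above 4.67 CPM in 35, with an empty interval of 1.02 log2 units between them. Of the 40 mutant-labelled libraries, 28 lay in the lower range and 12 in the upper. Of the 24 wildtype-labelled libraries, 23 lay in the upper range and ACY957 replicate 8, mouse 24, lay in the lower at 1.70 CPM. These 13 libraries go against the other libraries of their label. The 12 upper ones comprise 8 of the 16 mutant-labelled vehicle libraries numbered from mouse 48 on, and 4 of the other 24 mutant-labelled libraries. The 8 are VPA vehicle replicates 5, 6, 7, 8 and 13 and ACY957 vehicle replicates 6, 7 and 8, with 6.79 to 12.5 CPM. The 4 are VPA replicate 2, VPA vehicle replicate 3 and ACY957 replicates 1 and 3, with 5.37 to 5.73 CPM, and the first 2 of these are low in Th.

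No empty interval of the other 4 genes split the libraries in this way. The widest one of each set off a single library, as for Nr1d2, where 1.09 log2 units lay between 41.6 and 88.7 CPM. The split of Ciart recurred in their rank order. The 12 mutant-labelled libraries highest in Ciart were also the 12 highest in Nr1d2 and in Bhlhe41. They were 11 of the 12 highest in Bhlhe40 and 10 of the 12 highest in Nr1d1. Within these 12, Nr1d2 was 146 to 213 CPM, against a range of 114 to 245 CPM over the wildtype-labelled libraries. Without mouse 24 the wildtype-labelled range began at 170 CPM. Of the 12, ACY957 replicate 3 (146 CPM) and VPA replicate 2 (157 CPM) lay below that. In wildtype-labelled ACY957 replicate 8, Nr1d2 was 114 CPM and Bhlhe41 39.7 CPM, each the lowest of the 24 wildtype-labelled libraries. No group was formed from these libraries and none was moved, since they are told apart by the measured levels themselves. Results are given below under the labels. They are repeated without the 16 mutant-labelled vehicle libraries numbered from mouse 48 on, and without mouse 24. The labels do not name a cut at mouse 48, and it takes out 8 of the 12 mutant-labelled libraries in the upper range of Ciart. Larger differences and further calls in that repeat are therefore not independent of the levels themselves.

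**Figure D2:**
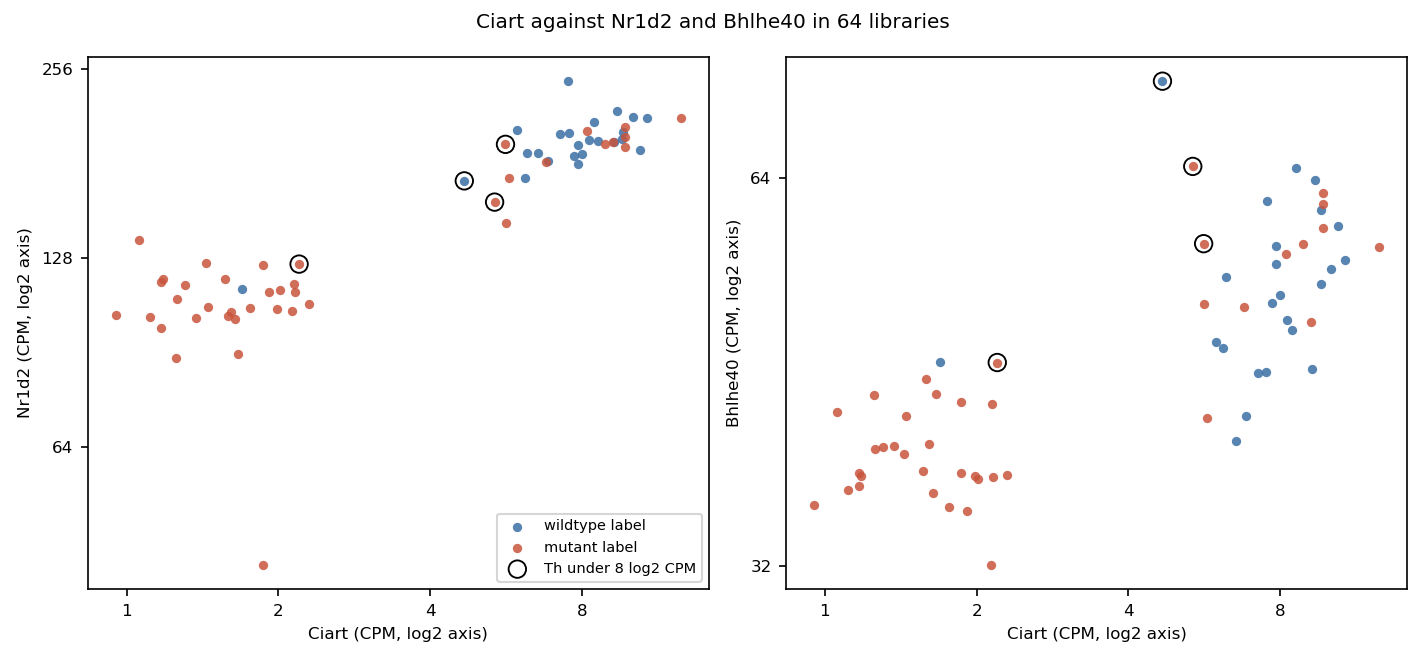
Each point is 1 of 64 libraries, with Ciart on the horizontal axis against Nr1d2 (left) and Bhlhe40 (right), all in CPM on log2 axes, blue for the wildtype label, red for the mutant label and ringed where Th is under 8 log2 CPM. No library lies between 2.30 and 4.67 CPM of Ciart, and 12 red points lie to the right of that interval and 1 blue point to its left.

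**Figure D3:**
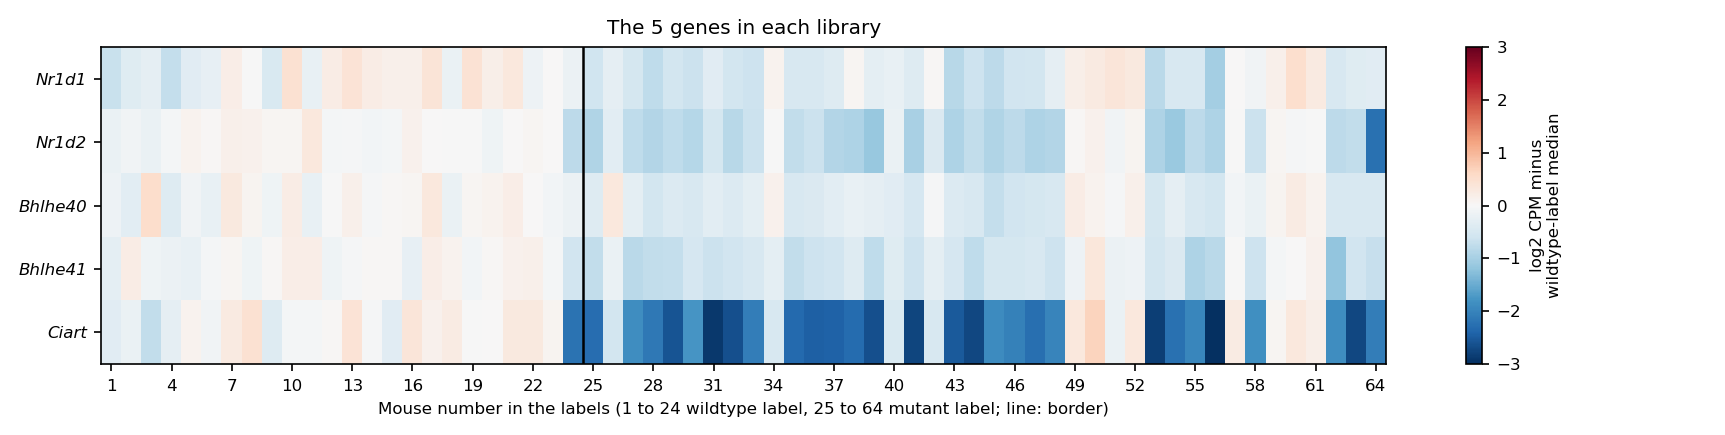
Log2 CPM of the 5 genes (rows) in each library ordered by mouse number (columns), as the difference from the median of the wildtype-labelled libraries, with a line between mice 24 and 25. Dark blue columns of Ciart are interrupted by pale ones at mice 26, 34, 40 and 42, from 49 to 52, at 57 and from 59 to 61, and mouse 24 is blue although it stands left of the line.

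The genotype comparison asked how the levels differed between the labels. Averaged over the 4 treatments, all 5 repressors fell under the mutant label by edgeR's quasi-likelihood test with Benjamini-Hochberg adjustment. Ciart fell most, to 0.412 times the wildtype-labelled level, or by 1.28 on the log2 scale (SE 0.24, adjusted p = 0.000623). Nr1d2 fell by 0.61 (SE 0.10, adjusted p = 3.95e-05) and Bhlhe41 by 0.47 (SE 0.07, adjusted p = 1.62e-05). Nr1d1 fell by 0.31 (SE 0.09, adjusted p = 0.0434) and Bhlhe40 by 0.28 (SE 0.07, adjusted p = 0.0132). Of all genes tested, 1.61% passed in either direction and 0.844% fell, and the median over all genes was 0.000379. In tissue punches fewer expressing cells and less RNA per cell cannot be told apart. Of the cell type lists, 4 of 5 microglia markers fell in the same comparison, with a median of -0.17. Among endothelial and mural markers 1 of 5 rose and 1 fell, 1 of 2 tested hypothalamus markers rose, and none of 9 dopamine neuron, 6 astrocyte, 5 oligodendrocyte, 4 ependymal and choroid or 2 tested serotonin neuron markers passed. The part of these shifts in the result was not tested.

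Nr1d2, Bhlhe40, Bhlhe41 and Ciart passed in all 7 other settings of the analysis and without any single 1 of the 64 libraries. Nr1d1 was lost without the low-count filter (adjusted p = 0.0512) and in 36 of 64 leave-outs, with the highest adjusted p, 0.119, without VPA vehicle wildtype-labelled replicate 3. Without mouse 24 the 5 differences were -0.32 for Nr1d1, -0.63 for Nr1d2, -0.28 for Bhlhe40, -0.48 for Bhlhe41 and -1.32 for Ciart. Without the 16 late vehicle libraries the difference in Ciart was -1.84, and all 5 genes passed. More genes passed in that fit as a whole, 611 (3.93%) against 252.

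In VPA-treated mice, 3 of the 5 repressors fell under the mutant label. Nr1d2 fell by 0.68 (SE 0.18, adjusted p = 0.0462), with means of 195 CPM (SD 19.3, n = 8) and 121 CPM (SD 17.9, n = 8) under the 2 labels. Bhlhe41 fell by 0.52 (SE 0.13, adjusted p = 0.0355), with means of 56.1 CPM (SD 6.54) and 39.1 CPM (SD 5.67). Ciart fell by 1.76 (SE 0.47, adjusted p = 0.0456), with means of 7.502 CPM (SD 1.94) and 2.22 CPM (SD 1.35). The differences in Bhlhe40, -0.26 (adjusted p = 0.283), and in Nr1d1, -0.19 (adjusted p = 0.613), did not pass by edgeR. Of all genes, 1.00% passed and 0.294% fell. Cell type markers moved beside these genes: both tested hypothalamus markers rose, with a median of 4.12 on the log2 scale, and 1 of 5 endothelial and mural markers rose. The summed hypothalamus markers ranged from 4.28 to 22.95 CPM under the wildtype and from 4.77 to 592 CPM under the mutant label, and 2 of the 4 were at 0 in some library of either group. All 9 dopamine neuron markers lay below 0, with a median of -0.64, and none passed. Their sum ranged from 913 to 12400 CPM and from 291 to 8861 CPM. The part of cell makeup in the result was not tested. These calls lie near the threshold. Fewer than 2 of the 5 genes passed without any 1 of wildtype-labelled replicates 1, 2, 4, 5, 6, 7 and 8 (0 or 1 gene each) or of mutant-labelled replicates 1, 4, 5, 7 and 8 (0 or 1 gene each). Without the 4 libraries low in Th, Nr1d2 was at -0.78 with an adjusted p of 0.0600, while Bhlhe41 and Ciart passed. Nr1d2 was also lost by voom (adjusted p = 0.0530), and without the low-count filter both Nr1d2 and Ciart were lost (adjusted p = 0.0526 each), which leaves 1 of the 5 genes.

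In ACY957-treated mice all 5 differences were below 0, and none passed over all genes. They were -0.59 for Nr1d1 (SE 0.16), -0.63 for Nr1d2 (SE 0.18), -0.47 for Bhlhe40 (SE 0.12), -0.51 for Bhlhe41 (SE 0.13) and -1.60 for Ciart (SE 0.47). The adjusted p ran from 0.265 to 0.530 by edgeR, with all 5 at an unadjusted p of 0.00106 or less. Of all genes 0% passed by edgeR (757 at an unadjusted p under 0.05), 5 genes by DESeq2 and 0 by voom, and none of the 5 repressors passed by DESeq2 or voom. With the 16 late vehicle libraries left out, which enter the fit only through the shared spread, 4 of the 5 passed: Nr1d1 (adjusted p = 0.0287), Nr1d2 (0.00191), Bhlhe41 (0.00125) and Ciart (0.00959). In that fit 20 genes passed in all, or 0.129% of those tested, against 0. In a fit of the 16 ACY957 libraries alone Bhlhe41 passed (adjusted p = 0.0328), as 1 of 8 genes (0.0546%). Without mouse 24 the count stayed at 0, with Bhlhe41 at -0.58 (adjusted p = 0.0887).

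The vehicle comparisons had 3 and 5 wildtype-labelled libraries. In ACY957 vehicle mice the differences were -0.40 for Nr1d1, -0.63 for Nr1d2, -0.32 for Bhlhe40, -0.45 for Bhlhe41 and -1.22 for Ciart, with adjusted p from 0.780 to 0.999 by edgeR. In VPA vehicle mice they were -0.07, -0.50, -0.06, -0.39 and -0.54 in the same order, with adjusted p from 0.913 to 0.987. No repressor passed in either by edgeR, DESeq2 or voom, while 5 of 5 and 2 of 5 had an unadjusted p under 0.05. Of the 15634 genes tested, 565 and 805 had an unadjusted p under 0.05 by edgeR, in the same order. Of all genes 0.0128% passed in ACY957 vehicle and 0.00640% in VPA vehicle mice. Without the 16 late vehicle libraries, Nr1d2 (-0.88, adjusted p = 0.00261), Bhlhe41 (-0.58, adjusted p = 0.0163) and Ciart (-2.53, adjusted p = 0.00476) passed in ACY957 vehicle mice, and none in VPA vehicle mice, where Ciart was at -1.47. In that fit 22 genes (0.141%) passed in ACY957 vehicle mice and 4 genes (0.0257%) in VPA vehicle mice. The mutant-labelled ACY957 vehicle libraries left in it were replicates 1 to 4, with Ciart at 1.255 to 1.588 CPM.

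**Figure D4:**
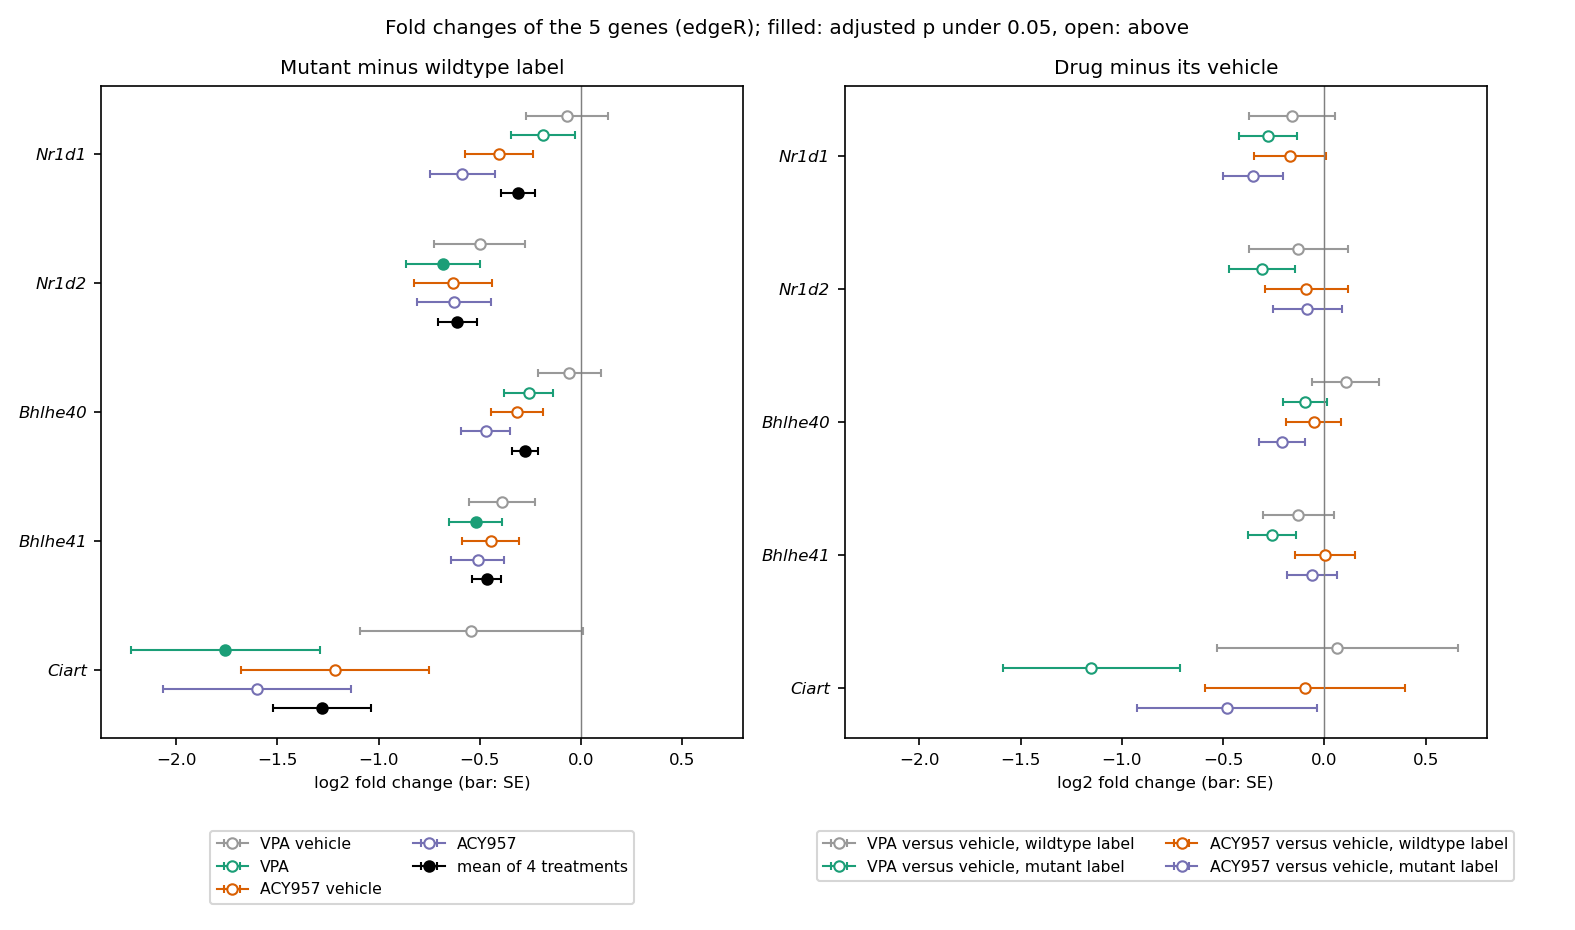
Log2 fold change (horizontal axis) with its SE for each gene, for the mutant minus the wildtype label within each treatment and on average (left) and for each drug minus its vehicle within each label (right), filled where the adjusted p is under 0.05. All 25 values on the left lie below 0, 8 of them filled, while no value on the right is filled.

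The drug comparisons asked whether 14 days of either inhibitor moved the repressors. Treatment runs in blocks of mouse number, so a drug effect and anything tied to these blocks cannot be told apart. No difference between a drug and its vehicle passed for any of the 5 genes by edgeR, DESeq2 or voom. Under the wildtype label, VPA differed from its vehicle by -0.16 in Nr1d1 (95% interval -0.58 to 0.26), -0.13 in Nr1d2 (-0.61 to 0.35), 0.11 in Bhlhe40 (-0.22 to 0.43), -0.13 in Bhlhe41 (-0.47 to 0.22) and 0.06 in Ciart (-1.10 to 1.23). ACY957 differed by -0.17 (-0.52 to 0.18), -0.09 (-0.49 to 0.31), -0.05 (-0.32 to 0.22), 0.00 (-0.29 to 0.29) and -0.10 (-1.07 to 0.87) in the same order. The intervals of Ciart were the widest of the 5 genes, and a drug effect of up to 1 log2 unit in either direction lies within them under VPA. None of the 5 had an unadjusted p under 0.05 in these comparisons, in which 0.0256% (VPA) and 0.00640% (ACY957) of all genes passed.

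Under the mutant label all 5 repressors were lower with VPA than with its vehicle, and none passed. The differences were -0.28 for Nr1d1 (SE 0.14), -0.31 for Nr1d2 (SE 0.16), -0.10 for Bhlhe40 (SE 0.11), -0.26 for Bhlhe41 (SE 0.12, p = 0.0346 by edgeR before adjustment) and -1.15 for Ciart (SE 0.44, p = 0.0106 before and 0.240 after adjustment). Of all 15634 genes tested, 0.0576% passed, 1976 had an unadjusted p under 0.05 by edgeR and 7878 lay below 0. The vehicle side of this comparison holds 6 of the 12 libraries in the upper range of Ciart and the VPA side 1, and without the 16 late vehicle libraries the difference in Ciart was -0.21. With ACY957 the differences were -0.35 for Nr1d1 (SE 0.15, p = 0.0209 before and 0.651 after adjustment), -0.08 for Nr1d2, -0.21 for Bhlhe40, -0.06 for Bhlhe41 and -0.48 for Ciart. Here 0.00640% of all genes passed, 987 had an unadjusted p under 0.05 by edgeR and 7414 lay below 0. Without the 16 late libraries, Ciart was at 0.84, Nr1d2 at 0.16 and Bhlhe41 at 0.07, the opposite sign. The vehicle side then held replicates 1 to 4 alone, all in the lower range of Ciart at 1.255 to 1.588 CPM. On the ACY957 side replicates 1 and 3 were in the upper range, at 5.73 and 5.65 CPM, and the rest in the lower.

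Averaged over both labels, the differences with VPA were -0.22 in Nr1d1, -0.22 in Nr1d2, 0.00 in Bhlhe40, -0.19 in Bhlhe41 and -0.54 in Ciart, where 0.0704% of all genes passed. With ACY957 they were -0.26, -0.09, -0.13, -0.03 and -0.29 in the same order, where 0.0256% passed. Nr1d1 with ACY957 had an unadjusted p of 0.0277, and an adjusted p of 0.540, by edgeR. In that comparison 1281 of all genes had an unadjusted p under 0.05. The difference between labels in the response to VPA was -1.21 in Ciart (SE 0.75) and -0.20 to -0.12 in the other 4 genes, and none passed, against 0.00640% of all genes. For ACY957 it was -0.38 in Ciart (SE 0.67) and -0.18 to 0.01 in the other 4, and 0% of all genes passed by edgeR, DESeq2 or voom (287 at an unadjusted p under 0.05 by edgeR). None of the 5 repressors had an unadjusted p under 0.05 for either interaction. The ACY957 vehicle against the VPA vehicle gave 0.23 in Nr1d1, -0.19 in Nr1d2, 0.07 in Bhlhe40, -0.07 in Bhlhe41 and -0.12 in Ciart. None of the 5 passed or had an unadjusted p under 0.05 there, where 0.154% of all genes passed.

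Nr1d2 and Bhlhe41 fell relative to their paralogs. The ratio of 2 genes within a library does not depend on the library total. The log2 ratio of Nr1d2 to Nr1d1 counts was 2.38 (SD 0.37, n = 24) under the wildtype and 2.06 (SD 0.35, n = 40) under the mutant label. The difference within treatments was -0.33 (2-sided permutation p = 0.0002 over 100000 permutations of labels within treatment, adjusted p = 0.0004 over the 2 ratios), and 32 of 40 mutant-labelled libraries lay below the wildtype-labelled median of their own treatment. The difference was -0.51 in VPA, -0.46 in VPA vehicle, -0.31 in ACY957 vehicle and -0.04 in ACY957 mice. In ACY957 vehicle mice it was -0.19 without mutant-labelled replicate 11, the library lowest in Nr1d2. In VPA vehicle mice it ran from -0.73 (without wildtype-labelled replicate 3) to -0.31 (without wildtype-labelled replicate 2) when 1 library was left out. All 13 mutant-labelled libraries there lay below a wildtype-labelled median that comes from 3 libraries. The log2 ratio of Bhlhe41 to Bhlhe40 was 0.15 (SD 0.26, n = 24) and -0.02 (SD 0.20, n = 40), a difference within treatments of -0.20 (permutation p = 0.00144, adjusted p = 0.00144), with 33 of 40 mutant-labelled libraries below the wildtype-labelled median of their own treatment. By treatment it was -0.27 in VPA, -0.34 in VPA vehicle, -0.15 in ACY957 vehicle and -0.02 in ACY957 mice, and in VPA vehicle mice -0.22 without wildtype-labelled replicate 2. In ACY957 mice 3 of 8 (Nr1d2 to Nr1d1) and 4 of 8 (Bhlhe41 to Bhlhe40) mutant-labelled libraries lay below the wildtype-labelled median. The small differences there depend on single libraries: without mouse 24 they were -0.10 and -0.07, and over all single leave-outs they ran from -0.10 to 0.02 and from -0.07 to 0.03. Whether the treatments differ in this was not tested, and both ratios were chosen after the levels had been seen.

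**Figure D5:**
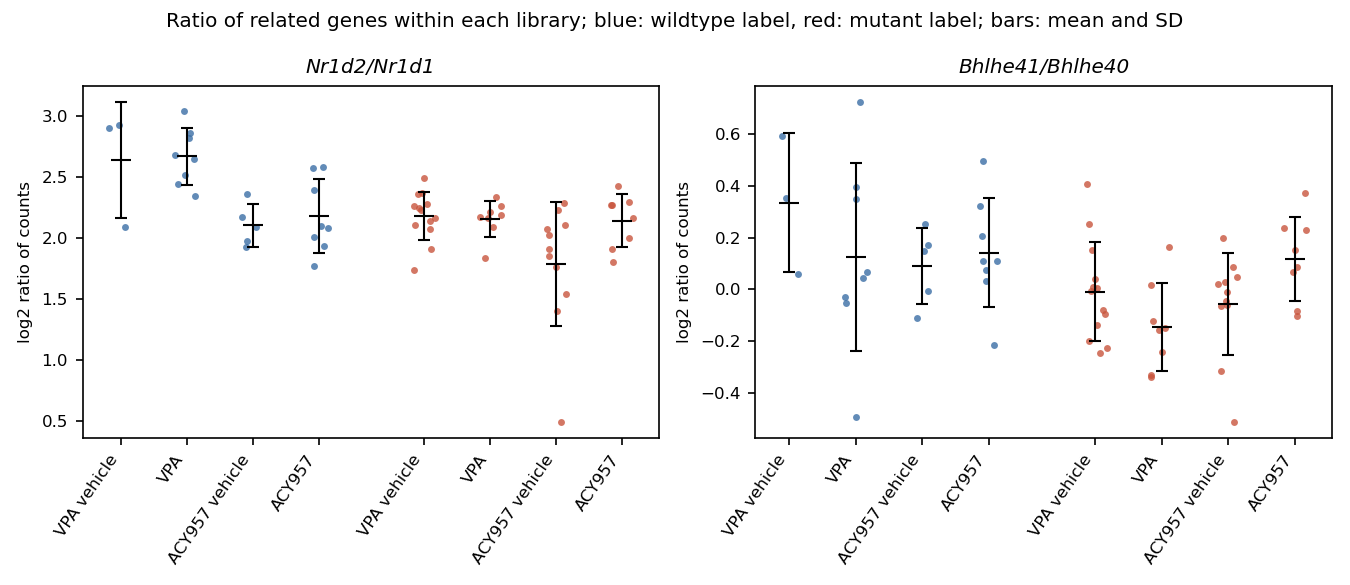
Log2 ratio of counts within each library (vertical axis) for Nr1d2 to Nr1d1 (left) and Bhlhe41 to Bhlhe40 (right), by group, with blue points for the wildtype label, red for the mutant label, and bars for the mean and SD. In ACY957 mice the means of the 2 labels differ by -0.04 and -0.02 (-0.10 and -0.07 without mouse 24), against -0.51 and -0.27 in VPA mice.

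The genes around the repressors in the loop moved as follows in the average over treatments, where 1.61% of all genes passed. All 8 listed E-box-driven clock genes fell, with a median of -0.51 beside -0.47 for the 5 repressors. Their differences ran from -1.14 in Per2 (SE 0.18), a period repressor, to -0.23. Cry2, a cryptochrome repressor, fell by 0.51 (SE 0.08), and the PAR bZIP output factors Tef and Hlf fell by 0.50 (SE 0.08) and 0.41 (SE 0.06). Ciart thus had the largest difference among these 13 genes. Of 7 genes listed as driven through REV-ERB and ROR elements, 6 were tested. Arntl rose by 0.54 (SE 0.08, adjusted p = 1.09e-05) and Nfil3, a repressor of D-box genes, rose by 0.38 (SE 0.08, adjusted p = 0.00595), while Cry1, which is on both lists, fell. Arntl had group means of 14.4 to 17.1 CPM under the wildtype and 21.2 to 24.2 CPM under the mutant label. Rora, a ROR activator, was at -0.09 (SE 0.05) and did not pass. None of the 6 genes of the NCOR-HDAC3 complex passed, and their differences ran from -0.05 to 0.03.

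Of 11 genes for the turnover of clock proteins, 2 fell: Csnk1e, a kinase of the period proteins, by 0.13 (SE 0.04) and Usp2, a deubiquitinase under clock control, by 0.35 (SE 0.09). None of 10 tested immediate early genes passed, and all 10 lay below 0 with a median of -0.17. Among 10 hypoxia-response genes Pdk1 fell by 0.15 (SE 0.04), and the median was -0.01. In VPA-treated mice, where 1.00% of all genes passed and 0.294% fell, 5 of the 8 E-box-driven genes fell (Cry2, Per2, Dbp and Tef with the smallest p) and Arntl rose by 0.73 (SE 0.14). The lists were drawn up with earlier results of these data known, and their counts are a description.

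Variation between mice of the same group was compared between the 5 genes. Over the 24 wildtype-labelled libraries, with each group mean subtracted, Nr1d2 and Ciart had Pearson r = 0.89 (Spearman rho = 0.72, permutation p = 1e-05, the smallest that 100000 permutations can give, adjusted p = 0.0001 over 10 pairs). Without the 2 libraries farthest from the median of the first-named gene, r was 0.63 (adjusted permutation p = 0.0191). Libraries far out only in the second gene were kept. Nr1d1 and Bhlhe40 had r = 0.64 (rho = 0.70, permutation p = 0.00062, adjusted p = 0.0031), and 0.58 without the 2 farthest (adjusted p = 0.0191). The other 2 pairs that passed rest on the 2 farthest libraries. Nr1d2 and Bhlhe41 had r = 0.66 (rho = 0.37, permutation p = 0.0026, adjusted p = 0.00867) and 0.30 without the 2 farthest, and Bhlhe41 and Ciart had r = 0.60 (rho = 0.26, permutation p = 0.0123, adjusted p = 0.0307) and 0.21. The other 6 pairs had r from 0.13 to 0.40 with adjusted p from 0.0983 to 0.533 by permutation. Neither paralog pair was among those that passed, with r = 0.29 for Nr1d1 and Nr1d2 and 0.15 for Bhlhe40 and Bhlhe41.

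Cell makeup varied beside some of these levels. For each of 7 cell types the mean log2 CPM of its markers was taken, for the hypothalamus from Pmch and Hcrt alone. Of 35 relations between the 5 genes and these means over the same 24 libraries, the strongest was Bhlhe40 against the dopamine neuron markers. Its r was -0.72 (rho = -0.63, permutation p = 0.00014, adjusted p = 0.0049). It was -0.61 without the 2 libraries farthest from the median of the marker mean. Bhlhe40 against the ependymal and choroid markers had r = 0.58 (adjusted p = 0.042 by permutation). Against the endothelial and mural markers, Nr1d2 had r = -0.59 (adjusted p = 0.042 by permutation) and Ciart r = -0.57 (adjusted p = 0.0459 by permutation). Nr1d2 against the oligodendrocyte markers had r = -0.53 (adjusted p = 0.0459 by permutation) and -0.31 without the 2 farthest libraries. By Spearman rho none of the 35 passed, the smallest adjusted p being 0.0518. The part of cell makeup in the levels was not tested.

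The genes whose pattern over the 24 libraries was most like that of each repressor differed within the set. The likeness is the Pearson r of log2 CPM with group means subtracted, given as a description without a test. For Nr1d2 the nearest were Cry2 (0.86), Eif5a2 (0.82), Mthfd1l (0.82), Tef (0.81) and Ipo5 (0.80). For Ciart they were Eif5a2 (0.88), Mthfd1l (0.85), Cry2 (0.81), Ipo5 (0.80) and Mto1 (0.77), so 4 of 5 are shared with Nr1d2. These values rest in part on mouse 24. Without it the 5 values for Nr1d2 were 0.66, 0.54, 0.45, 0.55 and 0.71, and those for Ciart 0.62, 0.42, 0.50, 0.75 and 0.41, in the same orders. Bhlhe41 was most like Msh5 (0.82), Tef (0.77), Dydc2 (0.73), Nop14 (0.71) and Rpl7l1 (0.70), which were 0.56 to 0.70 without mouse 24. Nr1d1 was most like Hmcn1 (0.74), Tceal6 (0.72), Rrp36 (0.72), Fabp7 (0.72) and Snx15 (0.70), and Bhlhe40 most like Camkv (0.81), Mfge8 (0.80), Atp8a1 (0.79), Lyg2 (0.78) and Npnt (0.78).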

How the data were processed

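RNA from VTA punches of 64 mice was sequenced from stranded poly(A) libraries (75 bases), per the labels' protocols. The deposited table holds raw read counts per gene symbol, with no normalization by the authors. The design text gives alignment to mm10 by TopHat2 2.0.9 and counting by HTSeq 0.6.1 (union mode). The submitters' processing notes give HISAT2 after Trimmomatic instead, so the aligner differs between these sources. The strand setting of the counting is not given in the sources used here.

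Libraries were grouped by their labels alone. The test was the quasi-likelihood F test of edgeR 4.0.16 (R 4.3.3), after TMM normalization and the filterByExpr filter, in 1 model of 8 group means over all 64 libraries, for 14 comparisons. P-values were adjusted by Benjamini-Hochberg over 15634 genes with a threshold of 0.05. An SE is the absolute log2 difference divided by the root of F. CPM are counts over the library total, divided further by GENCODE M21 exon length in kilobases where genes are compared. Correlations used edgeR log2 CPM (prior count 2). The labels name mice as replicates, and replicate numbers follow accession order. The edgeR procedure was tested on simulated data for the label difference in VPA mice and averaged over treatments. All mutant-labelled libraries were shifted alike in the simulation, unlike Ciart in the data, which fell into separate ranges.

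The 5 genes and the gene lists were chosen with earlier results of these data known. Named genes were the 5 members, Clock, up to 4 genes of each list that passed (by smallest p) with at most 2 that did not, and the 5 nearest genes to each member by correlation, predicted genes skipped. Alternatives were DESeq2 1.42.0, limma 3.58.1 voom, DESeq2 size factors, no low-count filter, the compared groups alone, the model without 16 late vehicle libraries (mutant label, mouse 48 or later), without 4 libraries low in Th, Th as a covariate, and leaving out each library of a comparison in turn. The ratios of paralogs were added after the data were seen. In drug and genotype comparisons that share a group, the same libraries enter each.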

Additional observations from a re-analysis of the deposited data

Results flagged for a closer look

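In groups of 4 to 10 libraries, a highest or lowest library was set apart from its group when its gap to the nearest other library was a large share of the group's range (Dixon's test at the 95% level). Of 25 gene-by-group sets tested, 6 had such a library, where chance alone gives about 1 in 20. All 6 belong to 2 libraries, so they are not independent of each other. In wildtype-labelled ACY957 replicate 8, Nr1d2 was 114 CPM with the nearest library at 181 CPM, Bhlhe41 was 39.7 CPM with the nearest at 56.3 CPM, and Ciart was 1.70 CPM with the nearest at 7.83 CPM. In mutant-labelled VPA replicate 2, Bhlhe40 was 65.4 CPM with the nearest library at 46.04 CPM, Bhlhe41 was 51.8 CPM with the nearest at 42.2 CPM, and Ciart was 5.37 CPM with the nearest at 2.30 CPM. The first library lay at the level of the lower range of Ciart and the second, which is low in Th at 45.1 CPM, in the upper range. Neither the genotype of these mice nor the dissection of the punches was tested.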

How the results depend on the processing

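No paired analysis was possible because replicate numbers follow accession order and pair no mice. Counts refer to the 5 repressors. In VPA-treated mice the number that fell with the mutant label, 3, was 1 without the low-count filter and 0 to 3 when 1 library was left out. In ACY957-treated mice the number, 0, became 4 without the 16 late vehicle libraries and 1 in the compared groups alone. In ACY957 vehicle mice it became 3 without the 16, and of 4 correlated pairs 2 passed without the 2 farthest libraries. The averaged genotype count of 5 was 4 or 5 throughout, and the counts of 0 in the drug, interaction and vehicle comparisons stayed at 0. The ratio differences ranged from -0.398 to -0.294 (Nr1d2 to Nr1d1) and from -0.231 to -0.164 (Bhlhe41 to Bhlhe40) when 1 library was left out.

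Signs turned in 16 values of single genes, none past the threshold, and the cause was not tested. By voom these were Bhlhe41 with ACY957 under the wildtype label (-0.00752), Nr1d2 with ACY957 under the mutant label (0.0136) and Bhlhe40 with VPA over both labels (-0.00796). With Th as a covariate they were Bhlhe41 with ACY957 under the wildtype label (-0.0136) and Bhlhe40 with VPA over both labels (-0.0938), the latter also without the libraries low in Th (-0.0907). Without the 16 vehicle libraries ACY957 gave 0.163 in Nr1d2, 0.0717 in Bhlhe41 and 0.842 in Ciart under the mutant label, and 0.0389, 0.0388 and 0.375 over both labels. The VPA interaction gave 0.0633 in Nr1d1 and 0.0429 in Bhlhe41, and the ACY957 interaction 0.0658 in Bhlhe41 and 0.935 in Ciart.

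Leaving out 1 library turned the sign in 43 single-gene values that had not passed. With VPA, Bhlhe40 over both labels ranged from -0.0452 to 0.0334, and Ciart from -0.0532 to 0.155 and Nr1d1 from -0.301 to 0.0560 under the wildtype label. With ACY957, Bhlhe41 ranged from -0.0579 to 0.00739 over both labels, -0.118 to 0.0124 under the mutant and -0.0524 to 0.0694 under the wildtype label. Ciart ranged from -0.185 to 0.0549 under the wildtype and Nr1d2 from -0.180 to 0.00412 with the mutant label. The label difference in VPA vehicle mice ranged from -0.107 to 0.000749 in Bhlhe40 and -0.209 to 0.148 in Nr1d1. The interactions ranged from -0.1301 to 0.0100 in Bhlhe41 and -0.0910 to 0.0934 in Nr1d2 with ACY957, and from -0.335 to 0.0219 in Nr1d1 with VPA. Depth limits Ciart most, at 25 reads in its lowest library.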
